A study of Mus musculus with 12 samples.

Results

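The 7 genes described here encode ligands of the tumour necrosis factor (TNF) superfamily, namely *Cd40lg*, *Fasl*, *Tnfsf8*, *Tnfsf9*, *Tnfsf10*, *Tnfsf11* and *Tnfsf14*. They were taken by gene name from the 24439 gene names of each library, and all 7 were among the 12442 genes tested. RNA-Seq was performed on CD4 T cells purified with CD4 microbeads from the spleens of C57BL/6 C42 mice, a line that carries a fragment of the human IL3/CSF2 locus in every sample. The cells were turned into T blast cells (TB) with 2 ug/ml of the mitogen concanavalin A for 40 h and then expanded in IL-2 at 50 U/ml, which lasted 2 days by the labels and 30 h by the study's methods. The conditions compared numbered 4, with 3 libraries each. TB IL-2 stayed in IL-2, and TB IL-2nil was kept without IL-2 for a further 16 h. For TB+ IL-2 and TB+ IL-2nil, cells kept in these ways were stimulated with a phorbol ester and a calcium ionophore (together PMA/I). This treatment lasted 2 h by the methods and bypasses the T cell receptor. The study asked what IL-2 contributes to the gene expression of recently activated T cells, before and after restimulation. The sources used here name no separate animals or cultures behind the replicates, so P-values measure the spread between these libraries.

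The library labelled TB IL-2nil replicate 3 and the library labelled TB+ IL-2 replicate 3 were placed in each other's group, as they are in the study's published table of expression values. Each of the 12 columns of that table was met in 100% of 1381 genes, to within 0.1%, by 1 deposited library, which had the same label in all but these 2. *Il2*, which PMA/I induces in T cells, was at 1368 FPKM in the library labelled TB IL-2nil replicate 3, against 1095 to 2374 FPKM in the other stimulated libraries. It was at 0.290 FPKM in the library labelled TB+ IL-2 replicate 3 and at 0 to 1.18 FPKM in the other unstimulated libraries. Results are also given with the 2 libraries as labelled and with both left out. The relative depth of the libraries, read from the steps between low values, ranged over 3.10-fold, and no read counts were used here. Of the marker lists, the 6 CD4 T cell markers summed to 1185 to 2164 TPM over the 12 libraries. The 4 B cell markers summed to 2.36 to 29.6 TPM, the 2 CD8 T cell markers to 6.91 to 31.9 TPM, the 6 myeloid and dendritic cell markers to 1.78 to 5.07 TPM and the 2 regulatory T cell markers to 1.32 to 9.51 TPM. The 3 NK cell markers summed to at most 0.303 TPM, and *Ncr1* was listed at 0 in every library.

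Ligands of this family are mostly trimeric membrane proteins that engage receptors on neighbouring cells. Through adaptor proteins of the TRAF family the receptors activate NF-kB and promote survival and costimulation, while receptors with a death domain can activate caspases through FADD. On CD4 T cells the best known member is CD40 ligand, with which helper T cells activate B cells and dendritic cells.

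PMA/I raised the transcript levels of 6 of the 7 ligand genes in T blast cells, and it did so with IL-2 and after its withdrawal. *Cd40lg* and *Tnfsf8* had the 2 highest means of the 7 in every group. *Tnfsf14* and *Tnfsf11* went from a few TPM to at least 240.0 TPM. *Fasl* had the smallest log2 rise of the 6 in both settings. *Tnfsf9* rose less than *Tnfsf8* with IL-2 and more without it. *Tnfsf10* was the exception, with lower levels in every stimulated than in every unstimulated library. Levels are given as scaled TPM, which are the deposited FPKM values rescaled to TPM, a measure of transcript abundance per length, and to a common upper quartile, and they are listed in the order of the replicate numbers, so that the third value of TB IL-2nil and of TB+ IL-2 is the differently placed library.

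*Cd40lg* encodes CD40 ligand and maps to chrX:54465320-54477219 (plus strand; mm9, with all gene coordinates taken from GENCODE M1). Its level was 38.4, 17.6 and 18.3 TPM in TB IL-2 and 83.5, 67.1 and 50.2 TPM in TB IL-2nil. It was 5095, 3617 and 2619 TPM in TB+ IL-2 and 6810, 4033 and 3887 TPM in TB+ IL-2nil. The stimulated libraries therefore lay above all unstimulated ones, and the 2 stimulated groups overlapped. With a mean of 3777 ± 1246 TPM (SD, n = 3) in TB+ IL-2 and 4910 ± 1647 TPM (SD, n = 3) in TB+ IL-2nil, the gene took rank 22 and rank 23 by level among the genes tested.

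*Tnfsf8* encodes the ligand of CD30 and maps to chr4:63492342-63522381 (minus strand). It was at 70.4, 28.6 and 16.2 TPM in TB IL-2 and at 50.9, 32.2 and 41.2 TPM in TB IL-2nil. After PMA/I it was at 2242, 1514 and 710.1 TPM with IL-2 and at 1488, 893.3 and 506.1 TPM without. Its log2 differences had the largest SE of the 7 genes (0.56), and the libraries numbered 1 were highest in both stimulated groups. The libraries numbered 1 were also the highest of both stimulated groups for *Cd40lg*, *Tnfsf11* and *Tnfsf14*.

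*Tnfsf9* encodes the ligand of the costimulatory receptor of *Tnfrsf9* and maps to chr17:57244808-57247180 (plus strand). Its level was 6.23, 2.58 and 2.78 TPM in TB IL-2 and 4.38, 3.88 and 3.16 TPM in TB IL-2nil. In TB+ IL-2 it was 121, 82.2 and 123 TPM, and in TB+ IL-2nil 218, 169 and 165 TPM. In scaled TPM the stimulated groups did not overlap, and all libraries without IL-2 were above those with it.

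*Tnfsf14* encodes LIGHT, which binds the receptors of *Tnfrsf14* and *Ltbr*, and maps to chr17:57328915-57333612 (minus strand). It had the lowest mean of the 7 at rest, although *Tnfsf9* was below it in 2 of 3 TB IL-2 libraries. Its level was 3.11, 3.42 and 3.86 TPM in TB IL-2 and 2.35, 1.32 and 2.21 TPM in TB IL-2nil. It reached 983.8, 764.0 and 603.7 TPM in TB+ IL-2 and 1101, 905.8 and 787.7 TPM in TB+ IL-2nil. All stimulated libraries lay far above the unstimulated ones, and the stimulated groups overlapped.

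*Tnfsf11* encodes RANKL, known for driving osteoclast formation and for its part in dendritic cell survival, and maps to chr14:78677252-78707850 (minus strand). Its level was 6.15, 6.81 and 2.20 TPM in TB IL-2, 4.67, 2.35 and 3.15 TPM in TB IL-2nil, 583.3, 415.6 and 240.0 TPM in TB+ IL-2 and 786.0, 349.3 and 262.9 TPM in TB+ IL-2nil. Neither the unstimulated nor the stimulated groups were separated from each other.

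Death ligands are encoded by the remaining genes. *Fasl*, whose product binds Fas and kills activated lymphocytes, maps to chr1:163710820-163718626 (minus strand). It was at 9.68, 19.5 and 9.65 TPM in TB IL-2, 17.1, 29.0 and 11.5 TPM in TB IL-2nil, 169.7, 192.3 and 128.9 TPM in TB+ IL-2 and 407.0, 285.5 and 282.0 TPM in TB+ IL-2nil. As for *Tnfsf9*, every TB+ IL-2nil library was above every TB+ IL-2 library. *Tnfsf10*, which encodes TRAIL, maps to chr3:27215950-27241349 (plus strand). Its level was 4.97, 4.25 and 4.52 TPM in TB IL-2, 7.25, 4.83 and 8.28 TPM in TB IL-2nil, 2.72, 2.08 and 2.84 TPM in TB+ IL-2 and 2.35, 1.64 and 2.47 TPM in TB+ IL-2nil. All of these are low levels, and the highest stimulated library was below the lowest unstimulated one.

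**Figure D1:**
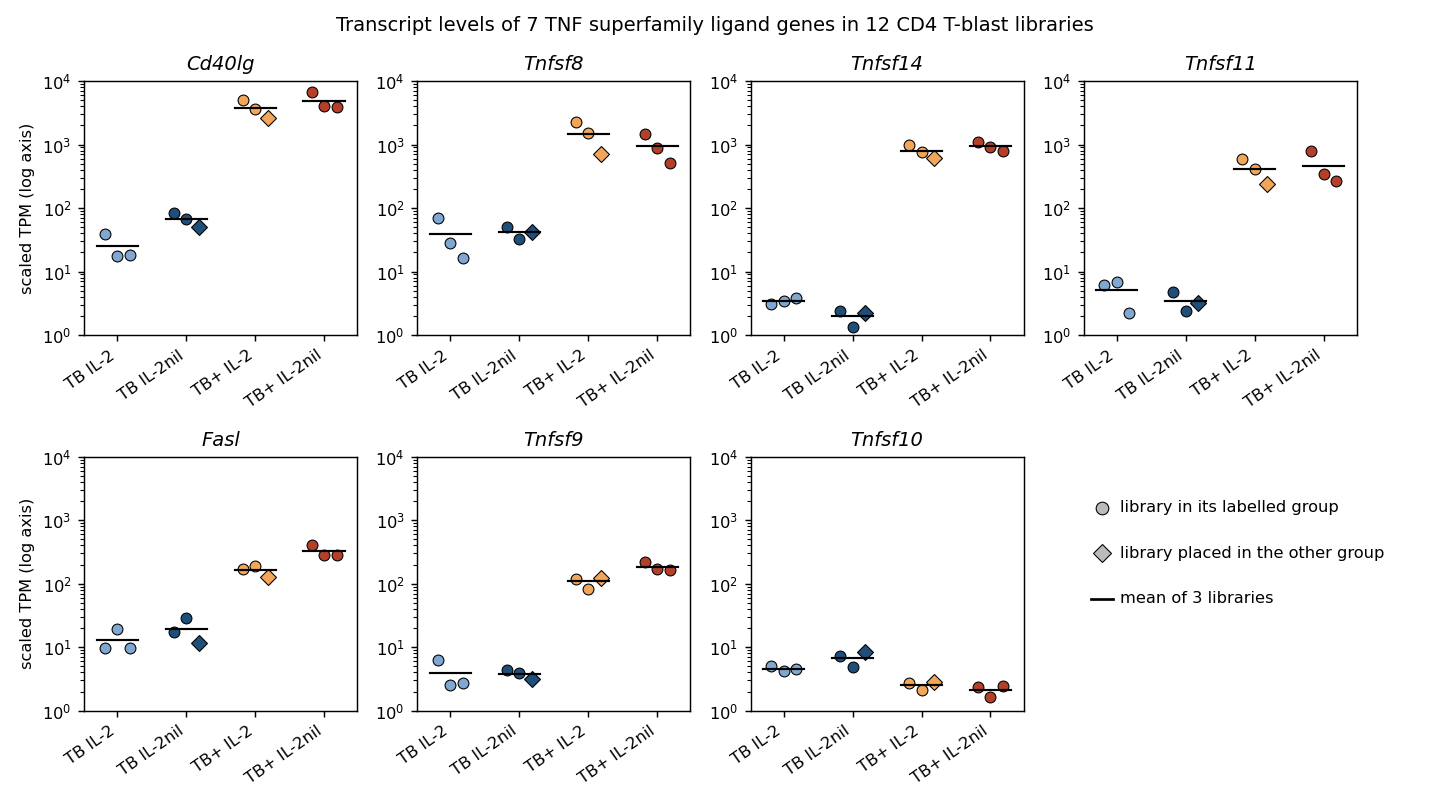
Scaled TPM (vertical log axis) of the 7 ligand genes in the 4 groups (horizontal axis), with 1 point per library, a bar for the mean of 3 libraries and diamonds for the 2 libraries placed in each other's group. All genes but *Tnfsf10* sit far higher in both stimulated groups, from 506.1 TPM upward for *Tnfsf8* and 2619 TPM upward for *Cd40lg*, while *Tnfsf10* stays at or below 8.28 TPM and is lower after PMA/I.

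The order of the 7 levels changed with stimulation. In TB IL-2 the means ran from *Tnfsf8* at 38.4 TPM over *Cd40lg* at 24.8 and *Fasl* at 12.9 TPM to *Tnfsf11*, *Tnfsf10*, *Tnfsf9* and *Tnfsf14* at 5.06 to 3.46 TPM. In this group only *Fasl* and *Tnfsf11* were neighbours whose libraries did not overlap, so the other neighbours could not be ordered beyond their spread. In TB IL-2nil *Cd40lg* led with 66.9 TPM, before *Tnfsf8* with 41.4 TPM. These 2 overlapped across libraries, but *Tnfsf8* was the lower in 3 of 3. *Tnfsf8*, *Fasl* and *Tnfsf10* were each apart from the next gene in this group, while *Tnfsf9*, *Tnfsf11* and *Tnfsf14* overlapped. Within its libraries, *Tnfsf14* was below *Tnfsf11* in 3 of 3 and *Tnfsf11* below *Tnfsf9* in 2 of 3. After PMA/I the order of the means was the same with and without IL-2, with *Cd40lg* first, then *Tnfsf8*, *Tnfsf14*, *Tnfsf11*, *Fasl*, *Tnfsf9* and *Tnfsf10*. *Tnfsf8* and *Tnfsf14* overlapped in both stimulated groups, as did *Tnfsf11* and *Fasl* in TB+ IL-2nil. Within libraries, *Tnfsf14* was below *Tnfsf8* in 3 of 3 of TB+ IL-2 but above it in 2 of 3 of TB+ IL-2nil. *Fasl* was below *Tnfsf11* in 2 of 3 TB+ IL-2nil libraries. All other neighbours were apart.

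Start regions were looked at because 6 of the genes rose together. Windows from 250 bases before to 50 after the gene start were available from RefSeq (GRCm38.p6, another build than that of the gene coordinates above) for 5 of the 7 genes, among 32851 windows in all, and *Cd40lg* and *Tnfsf9* were not among them. The windows of *Tnfsf14* (chr17:57194132-57194431, minus strand), *Fasl* (chr1:161788446-161788745, minus strand) and *Tnfsf10* (chr3:27316827-27317126, plus strand) are shown 5′ to 3′, as the gene with the largest rise, a further gene that rose and the gene that did not. Capitals mark TGANTCA (AP-1) and GGAAA (the core bound by NFAT), with TTTCC for GGAAA on the other strand.
Tnfsf14: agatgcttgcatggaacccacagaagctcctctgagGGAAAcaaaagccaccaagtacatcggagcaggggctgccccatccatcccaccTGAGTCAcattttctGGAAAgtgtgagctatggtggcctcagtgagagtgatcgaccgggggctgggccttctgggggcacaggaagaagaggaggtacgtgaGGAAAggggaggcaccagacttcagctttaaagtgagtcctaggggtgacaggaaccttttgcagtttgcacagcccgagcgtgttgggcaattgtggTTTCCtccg
Fasl: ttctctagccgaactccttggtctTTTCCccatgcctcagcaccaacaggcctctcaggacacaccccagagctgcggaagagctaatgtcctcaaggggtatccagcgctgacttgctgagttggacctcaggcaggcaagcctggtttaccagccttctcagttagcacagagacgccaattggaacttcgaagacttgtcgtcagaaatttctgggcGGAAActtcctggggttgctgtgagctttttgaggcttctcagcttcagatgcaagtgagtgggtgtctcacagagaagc
Tnfsf10: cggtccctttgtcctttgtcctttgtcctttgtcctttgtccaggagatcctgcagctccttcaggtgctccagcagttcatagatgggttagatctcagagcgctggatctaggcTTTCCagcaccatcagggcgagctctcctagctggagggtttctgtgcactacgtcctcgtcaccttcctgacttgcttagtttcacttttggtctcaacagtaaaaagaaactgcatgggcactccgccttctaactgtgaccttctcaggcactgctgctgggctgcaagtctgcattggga
Positions are counted from 1 at the gene start, with -1 as the base before it, and name the leftmost base of a match on the strand shown. TGANTCA was found in *Tnfsf14* alone of the 5, at -160, and 7.81% of all windows hold it. GGAAA was found on either strand in all 5 windows, as in 61.3% of all windows. *Tnfsf14* held 4 matches, at -214, -145, -57 and 42, *Fasl* held 2, at -226 and -30, and *Tnfsf10*, *Tnfsf8* and *Tnfsf11* held 1 each, at -134, -100 and -117. The loose NF-kB core, GGG and CC with 5 bases between them, held by 50.8% of all windows, was in *Fasl*, *Tnfsf11* and *Tnfsf14*, and TTCNNNGAA, the STAT pattern held by 8.30%, was in none. Such matches describe letters in these windows and not binding.

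With IL-2 maintained, TB+ IL-2 was compared with TB IL-2 to measure the response to PMA/I. All 6 genes named above rose past the threshold of more than 3-fold and an adjusted P under 0.05, by limma with Benjamini-Hochberg adjustment over all genes tested, while 3.94% of all genes were called higher. *Tnfsf14* rose by 7.43 on the log2(TPM + 1) scale (SE 0.22, adjusted P = 5.08e-09), which is 173-fold on that scale and rank 15 of all genes tested by size of the rise. *Cd40lg* rose by 7.23 (SE 0.35, adjusted P = 2.18e-07) and took rank 19. *Tnfsf11* rose by 6.11 (SE 0.47, adjusted P = 6.41e-06), and *Tnfsf8* by 5.34 (SE 0.56, adjusted P = 5.79e-05). *Tnfsf9* followed with 4.55 (SE 0.27, adjusted P = 1.14e-06) and *Fasl*, at rank 117, with 3.61 (SE 0.34, adjusted P = 2.84e-05). Because of the added 1 TPM, such a fold is too small for a gene as low at rest as *Tnfsf14*. *Tnfsf10* differed by -0.66 (SE 0.19, adjusted P = 0.0227), less than 3-fold, and in 5 of 21 alternatives its adjusted P was not under 0.05, up to 0.305 with quantile normalization. The groups did not overlap for 7 of 7 genes, against 51.7% of all genes tested. The median log2 difference of the 7 was 5.34, and that of all genes -0.22. In bulk RNA, fewer cells with a transcript and less of it per cell cannot be told apart.

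After withdrawal of IL-2, TB+ IL-2nil was compared with TB IL-2nil in the same way. Again 6 of 7 genes rose past the threshold, while 7.78% of all genes were called higher. *Tnfsf14* rose by 8.30 (SE 0.22, adjusted P = 1.72e-09), which is rank 16. *Tnfsf11* rose by 6.61 (SE 0.47, adjusted P = 1.76e-06), *Cd40lg* by 6.16 (SE 0.35, adjusted P = 4.77e-07) and *Tnfsf9* by 5.26 (SE 0.27, adjusted P = 2.51e-07). *Tnfsf8* rose by 4.39 (SE 0.56, adjusted P = 6.13e-05) and *Fasl* by 4.08 (SE 0.34, adjusted P = 4.65e-06). *Tnfsf10* differed by -1.29 (SE 0.19, adjusted P = 0.000194), a fold of 0.410, so that it passed the P but not the 3-fold threshold. It did pass both with a pseudocount of 0.1, at -1.60, and without scaling between libraries, at -1.68. The groups did not overlap for 7 of 7 genes, against 64.1% of all genes, and the median of the 7 was 5.26 against -0.38 for all genes. Both PMA/I comparisons use separate libraries, and in each of the 3 replicate numbers the 6 genes were higher and *Tnfsf10* lower after PMA/I.

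**Figure D2:**
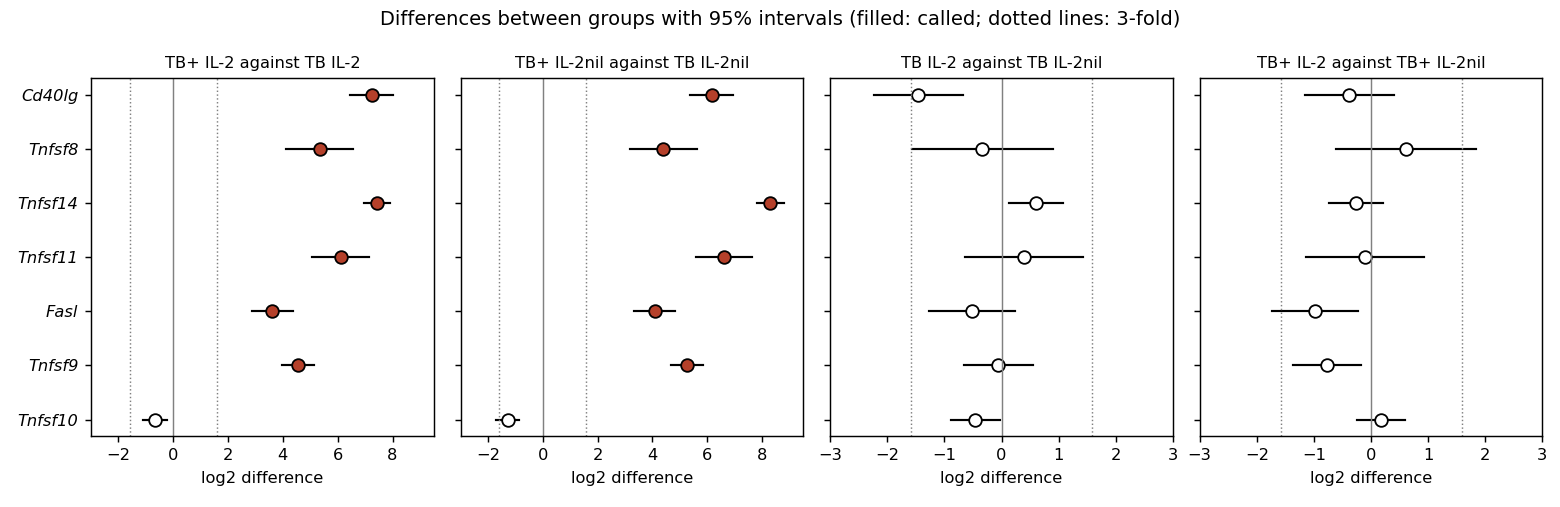
Log2 differences on the log2(TPM + 1) scale (horizontal axes) of the 7 ligand genes in 4 comparisons, with 95% intervals from limma, filled points for genes past both thresholds and dotted lines at 3-fold. In all, 6 of 7 points are filled in both PMA/I panels, at 3.61 to 7.43 and 4.08 to 8.30, and none is filled in the 2 panels for IL-2.

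These calls held without the 2 differently placed libraries and were lost with them as labelled. With both left out, 6 of 7 genes were again called higher in each PMA/I comparison (4.52% and 7.63% of all genes), by 3.78 to 7.61 with IL-2 and by 3.79 to 8.37 without. With the libraries as labelled, 0 of 7 were called in either comparison by limma, and 3 and 5 of 7 had an unadjusted P under 0.05 (14% and 32.3% of all genes). The share of all genes called higher was then 0.169% and 0.876%, and the median difference of the 7 was 3.98 and 3.63.

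Withdrawal of IL-2 without stimulation was examined by comparing TB IL-2 with TB IL-2nil. By limma 0 of 7 genes passed both thresholds, while 7.42% of all genes did, and 3 of 7 had an unadjusted P under 0.05 (49% of all genes). For 2 of them the adjusted P was under 0.05 (39.6% of all genes) and the groups did not overlap (53.2% of all genes). *Cd40lg* was lower in TB IL-2 than in TB IL-2nil by 1.46 in size (log2 difference -1.46, SE 0.35, adjusted P = 0.00800), at 24.8 ± 11.8 TPM against 66.9 ± 16.7 TPM (SD, n = 3). Its adjusted P was under 0.05 in 21 of 21 alternatives in this placement, at -1.27 to -1.81, and it also passed 3-fold in 4 of them, among them the one with both differently placed libraries left out (-1.65, adjusted P = 0.0124). The summed CD4 T cell markers were also lower in TB IL-2, at 1204 to 1291 TPM against 2021 to 2164 TPM, as were the B cell markers at 5.94 to 10.45 TPM against 23.2 to 29.6 TPM, and their part in this difference was not tested. *Tnfsf14* was higher in TB IL-2, at 3.46 ± 0.377 TPM against 1.96 ± 0.561 TPM (SD, n = 3), by 0.61 (SE 0.22, adjusted P = 0.0444). It kept an adjusted P under 0.05 in 11 of 21 alternatives, with 0.190 as the highest. The other 5 had adjusted P values from 0.0834 for *Tnfsf10*, at -0.46 (95% interval -0.88 to -0.03), to 0.903 for *Tnfsf9*, at -0.05 (95% interval -0.65 to 0.54). *Fasl* differed by -0.51 (95% interval -1.27 to 0.24), *Tnfsf8* by -0.33 (95% interval -1.56 to 0.89) and *Tnfsf11* by 0.39 (95% interval -0.64 to 1.43). These intervals are from the fit without the replicate number as a block. Within replicate numbers, *Fasl* and *Tnfsf10* were lower in TB IL-2 in 3 of 3. *Tnfsf8* and *Tnfsf9* were higher in 1 of 3 and *Tnfsf11* in 2 of 3. *Tnfsf10* had an adjusted P under 0.05 in 2 of 21 alternatives, with 0.017 as the lowest. With the libraries as labelled, 0 of 7 had an adjusted P under 0.05 (0.121% of all genes) or an unadjusted one (11.5%).

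In stimulated cells, TB+ IL-2 was compared with TB+ IL-2nil. No ligand gene was called in limma, against 3.62% of all genes, and 2 of 7 had an unadjusted P under 0.05 (35.2% of all genes). These were *Fasl*, at 163.6 ± 32.1 TPM with IL-2 and 324.8 ± 71.2 TPM without (SD, n = 3), and *Tnfsf9*, at 108.5 ± 22.8 TPM and 183.9 ± 29.5 TPM (SD, n = 3). The log2 difference was -0.98 for *Fasl* (SE 0.34, adjusted P = 0.0632) and -0.77 for *Tnfsf9* (SE 0.27, adjusted P = 0.0672). These were the 2 genes without overlap between the groups, against 37.2% of all genes. With the replicate number as a block, the adjusted P was 0.0177 for both, still below 3-fold, and 33.6% of all genes had an adjusted P under 0.05. With both differently placed libraries left out it was 0.164 and 0.123. Over 21 alternatives in this placement it was under 0.05 in 5 for *Fasl* and in 2 for *Tnfsf9*. It was highest without scaling between libraries, at 0.262 for *Fasl* and 0.63 for *Tnfsf9*. The summed CD4 T cell markers were also lower in TB+ IL-2, at 1185 to 1321 TPM against 1686 to 2077 TPM, as were the B cell markers at 2.36 to 3.31 TPM against 5.49 to 12.7 TPM, and their part in these differences was not tested. *Tnfsf8* was the gene that pointed the other way most, at 0.61 (95% interval -0.61 to 1.84, adjusted P = 0.469), and it was higher with IL-2 in 3 of 3 replicate numbers. The intervals of *Cd40lg* (-1.16 to 0.40), *Tnfsf14* (-0.74 to 0.21), *Tnfsf10* (-0.25 to 0.60) and *Tnfsf11* (-1.14 to 0.93), from the fit without the block, spanned 0. Within replicate numbers, *Cd40lg* and *Tnfsf14* were lower with IL-2 and *Tnfsf10* higher in 3 of 3, while *Tnfsf11* was higher in 1 of 3. With the block the adjusted P was 0.0935 for *Cd40lg*, 0.146 for *Tnfsf8*, 0.329 for *Tnfsf14*, 0.335 for *Tnfsf10* and 0.812 for *Tnfsf11*. As labelled, 0 of 7 had an unadjusted P under 0.05 (17.5% of all genes).

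The interaction, which asks whether the PMA/I response differed with IL-2, had an adjusted P under 0.05 for 0 of 7 genes in limma, against 4.23% of all genes, and an unadjusted P under 0.05 for 2 of 7 (23.1% of all genes). It is the response with IL-2 minus the response without. *Cd40lg* had 1.08 (SE 0.50, adjusted P = 0.227), *Tnfsf8* 0.95 (SE 0.79, adjusted P = 0.508) and *Tnfsf10* 0.63 (SE 0.28, adjusted P = 0.200). *Tnfsf14* had -0.87 (SE 0.31, adjusted P = 0.125), *Tnfsf9* -0.71 (SE 0.38, adjusted P = 0.293), *Tnfsf11* -0.50 (SE 0.66, adjusted P = 0.688) and *Fasl* -0.47 (SE 0.48, adjusted P = 0.596). With the replicate number as a block, *Cd40lg* passed, at the same 1.08 (SE 0.22, adjusted P = 0.0207), as did 11.9% of all genes. With both differently placed libraries left out it was 1.51 (adjusted P = 0.197), when 0.0321% of all genes passed. As labelled, 0 of 7 had an unadjusted P under 0.05 (3.32% of all genes).

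By mean share, lymphotoxin beta led the family's transcripts in both unstimulated groups and CD40 ligand in both stimulated groups. Summed over 13 ligand genes of the superfamily that could be tested, including *Tnf*, *Lta*, *Ltb*, *Cd70*, *Tnfsf4* and *Tnfsf13b*, the level was 424.9 to 529.9 TPM in TB IL-2 and 743.1 to 851.5 TPM in TB IL-2nil. It was 7847 to 14059 TPM in TB+ IL-2 and 7832 to 14851 TPM in TB+ IL-2nil. The 7 genes alone summed to 57.5 to 139 TPM in TB IL-2, 119.7 to 170.1 TPM in TB IL-2nil, 4427 to 9196 TPM in TB+ IL-2 and 5892 to 10812 TPM in TB+ IL-2nil. *Ltb*, which encodes a subunit of the lymphotoxin heterotrimer, held 55.1 ± 7.89% of the sum in TB IL-2 and 79.3 ± 4.50% in TB IL-2nil, but 0.996 ± 0.590% and 1.56 ± 1.13% after PMA/I (SD, n = 3). *Cd40lg* went from 5.18 ± 2.43% and 8.37 ± 2.69% to 37.5 ± 4.91% and 48.7 ± 2.47% (SD, n = 3). Its share was 33.4 to 42.9% in TB+ IL-2 and 45.8 to 50.5% in TB+ IL-2nil, without overlap. *Tnf* held 30.7 ± 10.5% and 20.2 ± 5.75% of the stimulated sum (SD, n = 3), in groups that overlapped. In the library labelled TB IL-2nil replicate 3, placed in TB+ IL-2, *Tnf* held 40.0% and *Cd40lg* 33.4%, so that *Tnf* led there. These shares were not tested.

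**Figure D3:**
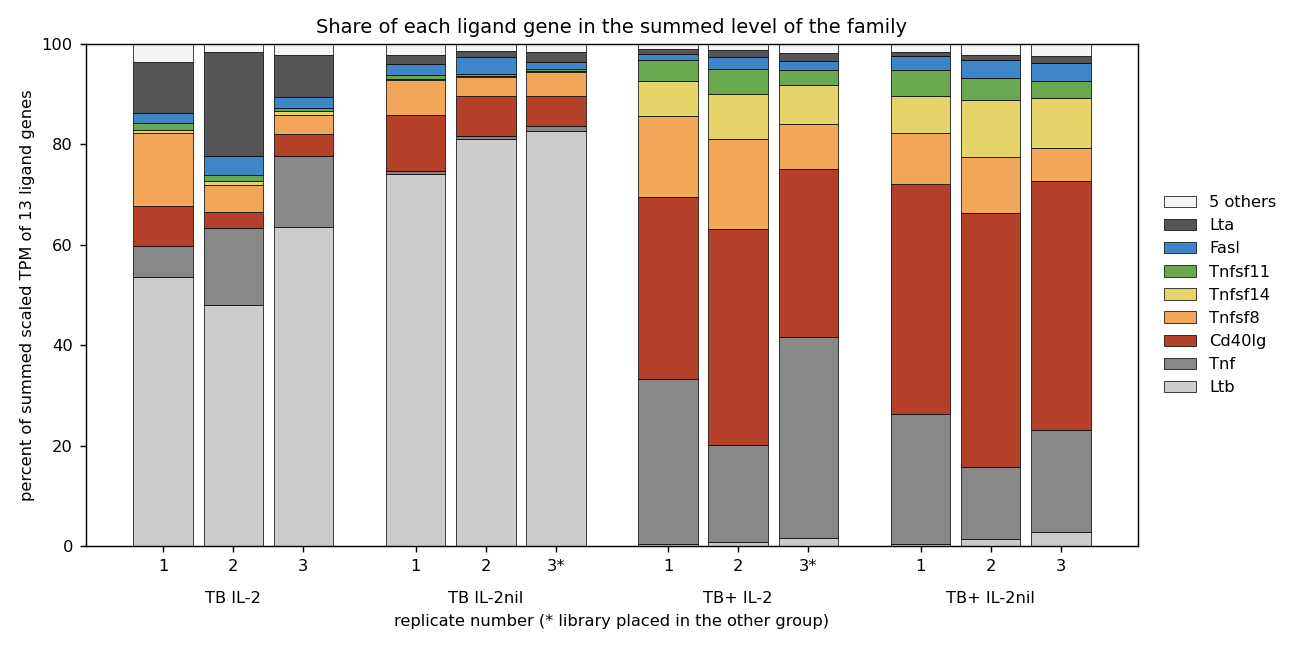
Percent of the summed scaled TPM of 13 ligand genes (vertical axis) held by each gene in each of the 12 libraries (horizontal axis, by group and replicate number, with an asterisk for the 2 libraries placed in each other's group). *Ltb* fills 48.1 to 82.6% of the unstimulated columns, and *Cd40lg* fills 33.4 to 50.5% of the stimulated ones.

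Of 11 other ligand genes of the superfamily, 6 could be tested, and *Tnfsf12*, *Tnfsf13*, *Tnfsf15*, *Tnfsf18* and *Eda* were at 0.0925 FPKM or less in every library. Beside the counts of each list below, 3.94% of all genes were called higher by PMA/I with IL-2 and 7.78% without. Of the 12442 genes tested, 386 were called lower with IL-2 and 1328 without, against 490 and 968 called higher. In the IL-2 comparisons 7.42% of all genes were called without stimulation and 3.62% with it. With IL-2, PMA/I raised 2 and lowered 1 of the 6. *Tnf* rose by 5.73 (SE 0.52, adjusted P = 2.17e-05) and *Tnfsf4*, the ligand of OX40, by 2.58 (SE 0.53, adjusted P = 0.00342), while *Ltb* fell by 1.59 (SE 0.35, adjusted P = 0.00515). Without IL-2, 3 rose and 1 fell, as *Tnf* rose by 8.16, *Lta* by 2.91 and *Tnfsf4* by 1.80, while *Ltb* fell by 2.39. The medians of the 6 were 1.04 and 1.44. In unstimulated cells 2 of 6 were higher with IL-2, which were *Tnf*, by 3.01 (SE 0.52, adjusted P = 0.00144), and *Lta*, by 2.13 (SE 0.35, adjusted P = 0.00102). Between the stimulated groups 0 of 6 was called in limma, and 0 had an unadjusted P under 0.05 (35.2% of all genes). With both differently placed libraries left out the counts were again 2 and 1, 3 and 1, 2 and 0, and 0.

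Of 11 receptor genes of the 7 ligands, 8 could be tested, and *Tnfrsf11a*, *Tnfrsf11b* and *Ltbr*, which encode receptors of RANKL and LIGHT, were at 0.238 FPKM or less. PMA/I raised 2 of 8 in each setting. *Tnfrsf9*, the receptor of the *Tnfsf9* product, rose by 2.38 with IL-2 (SE 0.38, adjusted P = 0.000829) and by 4.21 without (SE 0.38, adjusted P = 6.97e-06). *Fas*, the receptor of Fas ligand, rose by 1.90 (SE 0.30, adjusted P = 0.000867) and by 1.67 (SE 0.30, adjusted P = 0.000656). Without stimulation, *Tnfrsf9* was 1 of 8 called, at 27.1 ± 11.3 TPM with IL-2 and 4.65 ± 0.682 TPM without (SD, n = 3), higher by 2.25 (SE 0.38, adjusted P = 0.00115). Between the stimulated groups 0 of 8 was called in limma, with 5 at an unadjusted P under 0.05 (35.2% of all genes). The medians of the receptors were 0.37 and 0.50 in the PMA/I comparisons. With both differently placed libraries left out the counts of called receptors were the same, and 2 of 8 had an unadjusted P under 0.05 between the stimulated groups.

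Among 17 genes of the pathways downstream of the receptors, 6 rose and 1 fell with PMA/I in IL-2, with a median of 0.75 over the 17. The largest differences called were those of *Tnfaip3*, a feedback inhibitor of NF-kB, at 2.996 (SE 0.92, adjusted P = 0.0261), *Nfkb2* at 2.53 (SE 0.34, adjusted P = 0.000289), *Relb* at 2.42 (SE 0.43, adjusted P = 0.00170) and *Cflar*, an inhibitor of caspase-8 activation, at 2.26 (SE 0.29, adjusted P = 0.000207). The gene that fell was *Fadd*, named after its values were seen, by 1.76 (SE 0.16, adjusted P = 2.30e-05) with IL-2 and by 1.69 (SE 0.16, adjusted P = 1.00e-05) without. After IL-2 withdrawal 3 rose and 1 fell, with a median of 1.006. Here *Nfkb2* rose by 2.40 (SE 0.34, adjusted P = 0.000120) and *Cflar* by 1.89 (SE 0.29, adjusted P = 0.000194). *Relb* rose by 1.86 (SE 0.43, adjusted P = 0.00333) but by 1.53, below 3-fold, with both differently placed libraries left out, when *Tnfaip3* was called at 3.12 in its place. Both sheddase genes on the list, *Adam10* and *Adam17*, were tested, and 0 of 2 was called in any comparison in limma. Their mean levels differed in opposite directions after PMA/I. *Adam10* was higher after PMA/I, with means of 111.8 against 64.5 TPM with IL-2 and 102.6 against 68.6 TPM without. *Adam17* was lower, at 18.7 against 25.2 TPM and 15.4 against 27.7 TPM. In unstimulated cells 1 of 17, *Map3k14*, was called lower with IL-2, at -1.79 (SE 0.31, adjusted P = 0.00134). With both differently placed libraries left out 2 were, as *Relb* was then at -1.78. In the placement used, 8 of 17 were lower and 0 higher with an adjusted P under 0.05 by limma (39.6% of all genes in either direction). The median of the 17 was -0.98, against -0.13 for all genes. Between the stimulated groups 0 of 17 was called in limma, with 9 at an unadjusted P under 0.05 (35.2% of all genes).

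Of 11 transcription factor genes whose products are known to act on ligand genes, 8 rose and 1 fell in both PMA/I comparisons, with medians of 2.62 and 4.03. *Egr3* rose by 8.84 with IL-2 (SE 0.37, adjusted P = 1.03e-07) and by 8.79 without (SE 0.37, adjusted P = 7.60e-08). *Egr2* rose by 8.08 (SE 0.21, adjusted P = 3.31e-09) and by 8.81 (SE 0.21, adjusted P = 1.67e-09). *Rel* rose by 5.09 (SE 0.29, adjusted P = 8.06e-07) with IL-2, and *Fos* by 4.31 (SE 0.92, adjusted P = 0.00440) with IL-2 and by 7.80 (SE 0.92, adjusted P = 3.57e-05) without. *Tbx21*, which encodes T-bet, rose by 4.70 without IL-2 (SE 0.45, adjusted P = 9.92e-06). With both differently placed libraries left out, 7 and 8 were called higher, as *Nfatc1* was then at 1.55, below 3-fold. It and *Nfatc2*, the gene that fell, by 2.57 (SE 0.26, adjusted P = 4.39e-05) with IL-2 and by 2.25 (SE 0.26, adjusted P = 3.16e-05) without, are named after their values were seen. In unstimulated cells 1 of 11 was called, *Fos*, higher with IL-2 by 2.73 (SE 0.92, adjusted P = 0.0347). Its groups overlapped, at 2.84 to 55.3 TPM in TB IL-2 and 0.194 to 4.93 TPM in TB IL-2nil. Between the stimulated groups 0 of 11 was called in limma, with 7 at an unadjusted P under 0.05 (35.2% of all genes). As labelled, 1 gene of all these lists was called, the downstream gene *Traf1* in TB+ IL-2 against TB IL-2, at 1.81 (SE 0.33, adjusted P = 0.0427).

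**Figure D4:**
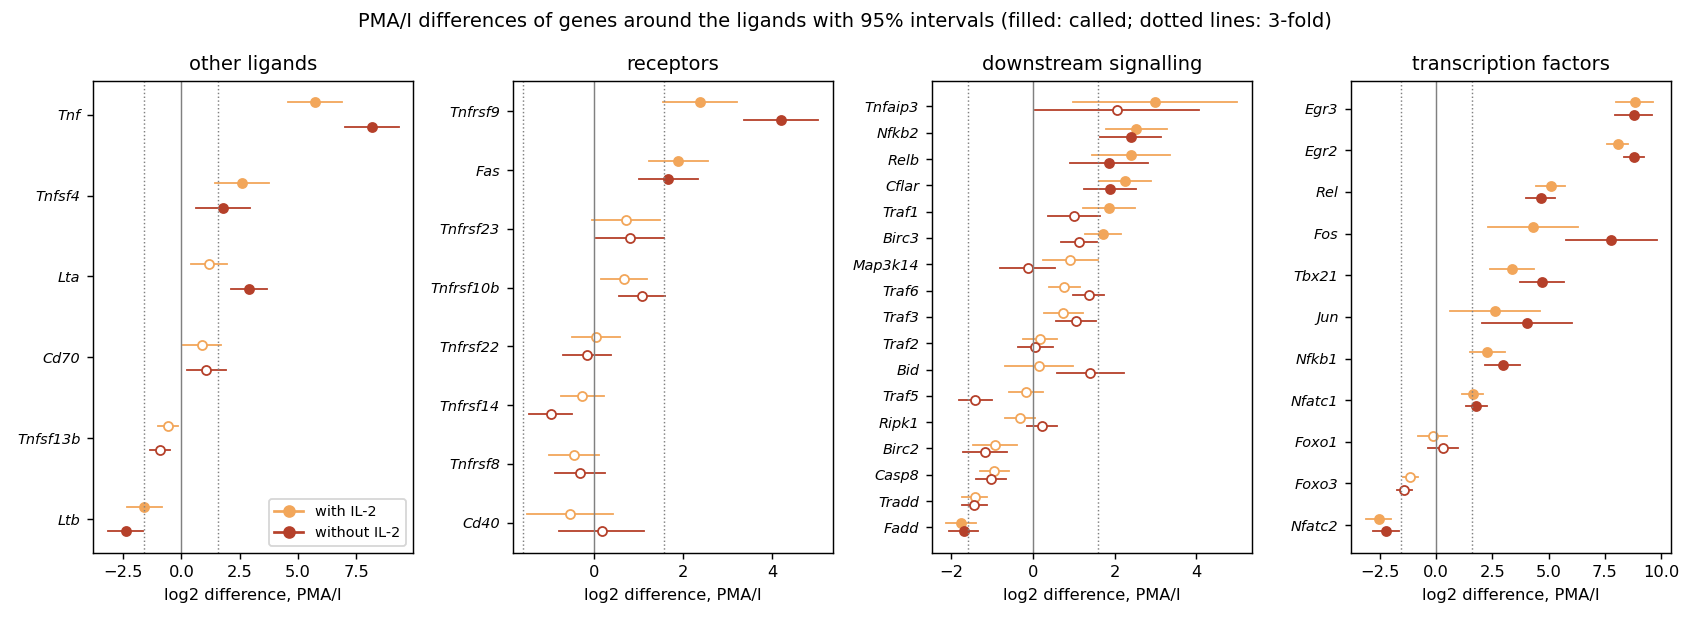
Log2 differences after PMA/I with 95% intervals (horizontal axes) for 4 lists of genes around the ligands, in orange with IL-2 and in red without, with filled points for genes past both thresholds and dotted lines at 3-fold. Of the genes tested, 2 and 3 other ligands, 2 and 2 receptors, 6 and 3 downstream genes and 8 and 8 transcription factors were called higher.

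The 6 genes that rose had Pearson correlations of 0.92 to 0.99 with each other over the 12 libraries, and *Tnfsf10* had -0.82 to -0.90 with them. These describe 12 points in 4 groups that share the stimulation and hold no test. The 3 genes most like each member by Pearson r over the 12 libraries were, for *Cd40lg*, *Smim3* (0.9954), *Il2* (0.9950) and *Chst2* (0.9918). For *Tnfsf8* they were *Pdcd1*, which encodes PD-1, *Ccl1* and *Cd160*, at 0.987 to 0.982. *Tnfsf9* was closest to *Sphk1*, *Gch1* and *Zfp703*, at 0.9955 to 0.9947, and *Fasl* to *Chd1*, *Stambpl1* and *Abl2*, at 0.9905 to 0.988. *Tnfsf11* was closest to *Il4*, *Eaf1* and *Plek*, at 0.9948 to 0.991, and *Tnfsf14* to *Eaf1*, *Nfkbid* and *Egr2*, at 0.9967 to 0.9957. The pattern of *Tnfsf10* was closest to *Tep1*, AU040320 and *Cers4*, at 0.978 to 0.971. Only the lists of *Tnfsf11* and *Tnfsf14* shared a gene, *Eaf1*.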

How the data were processed

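RNA-Seq of 12 libraries was analysed, 3 per group. Per the labels and methods the authors used Trimmomatic 0.32 for trimming, HISAT2 2.1.0 for alignment (mm9) and StringTie 1.3.3 for quantification of RefSeq models, and deposited FPKM values. The methods name TPM, as the planned tests assumed, but the deposited values are headed FPKM and sum to 193815 to 420487 per library. Read counts are unknown here, so no counting interval is given.

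FPKM values were converted to TPM, so that every library summed to 1000000. A gene entered the tests if any library had it above 1 TPM, and libraries were then brought to the same 75th percentile. log2(TPM + 1) values of 4 groups were fitted in limma 3.58.1 (R 4.3.3) without a block, which leaves 8 residual degrees of freedom. A call required a difference above 3-fold together with an adjusted P (Benjamini-Hochberg) below 0.05, and for the interaction the adjusted P alone. The fit was tested on simulated data for the PMA/I comparisons alone, and not for the IL-2 comparisons or the interaction.

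Figures and start-region searches used Python 3.11.15, numpy 2.4.6, pandas 2.3.3 and matplotlib 3.10.9. GENCODE M1 gave gene coordinates, which may differ from the RefSeq models. By the naming rule, each comparison names at most the 4 genes of a list with the largest difference among those called, besides the 7 ligands and the 3 genes most like each. Genes outside it were named after their values were seen, namely *Fadd*, *Nfatc1* and *Nfatc2*, the receptors among the closing observations, both sheddases and genes too low to test. A gene of the downstream list is not reported here. The ligands, lists and tests were chosen with earlier results of these data known.

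With the 2 libraries placed as in the published table, all 18 correlations between same-numbered libraries' deviations from their group means were over 0.1 (0.101 to 0.531), so the numbers, which come from the labels, were taken to pair the libraries. The sources used here do not say what a number shares. The main fit did not use this pairing, as the study's methods name no block, and the block was fitted as an alternative. Alternatives changed the placement, pseudocount, filter, scaling, variance model, block and libraries fitted.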

Additional observations from a re-analysis of the deposited data

Results flagged for a closer look

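*Traf5*, on the list of genes downstream of the receptors, had an adjusted P under 0.05 in the interaction test. It was picked as the only gene of the fixed lists past that threshold. The lists held 7 ligand, 6 other ligand, 8 receptor, 17 downstream, 2 sheddase and 11 transcription factor genes that were tested. Of all genes tested, 4.23% passed. *Traf5*, which encodes a TRAF adaptor, had an interaction of 1.24 (SE 0.26, adjusted P = 0.0307), with a response of -0.17 with IL-2 and -1.40 without. Its mean level was 29.5 TPM in TB IL-2nil and 12.2, 10.6 and 10.5 TPM in TB IL-2, TB+ IL-2 and TB+ IL-2nil. The adjusted P stayed under 0.05 when 4 of the 12 libraries were left out in turn and ranged from 0.0159 to 0.0737, the highest without the library labelled TB IL-2nil replicate 3. With both differently placed libraries left out it was 0.105, and with the libraries as labelled 0.914.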

How the results depend on the processing

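Of the 7 ligand genes, 6 were called higher in each PMA/I comparison under every alternative but 1: as labelled, 0 were called in either. In TB IL-2 against TB IL-2nil, 1 ligand gene (*Cd40lg*) was called lower with both differently placed libraries left out, with quantile normalization and without TB IL-2 replicate 1 (-1.81) or the library labelled TB+ IL-2 replicate 3 (-1.65), so that the count ran from 0 to 1 over libraries left out in turn. *Tnfsf10* was the 1 called lower in TB+ IL-2nil than in TB IL-2nil with a pseudocount of 0.1 and without scaling.

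The replicate block turned the interaction of *Cd40lg* (1.08) into a call, so that 1 ligand gene was called, and changed no other call of a ligand gene. It gave 760 and 718 genes of all tested with a positive and a negative interaction, against 195 and 331. Leaving out 1 library at a time gave 21 to 664 and 64 to 650, the lowest without TB IL-2nil replicate 2 and the highest without TB+ IL-2nil replicate 3. It also gave 42 to 94 genes called lower in TB+ IL-2 than in TB+ IL-2nil, against 51, the highest without TB+ IL-2nil replicate 2.

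As labelled, *Tnfsf11* (-1.56) and *Tnfsf14* (-1.91) changed sign in TB IL-2 against TB IL-2nil, and *Tnfsf8* (-0.75) in TB+ IL-2 against TB+ IL-2nil. In the latter, *Cd40lg* (0.014), *Tnfsf11* (0.29) and *Tnfsf14* (0.13) changed sign without scaling, as did *Fasl* (0.010) in the interaction, *Cd40lg* with quantile normalization (0.10) and *Tnfsf11* with both libraries left out (0.24), without the library labelled TB IL-2nil replicate 3 (0.24) or without TB+ IL-2nil replicate 1 (0.35). In TB IL-2 against TB IL-2nil, *Tnfsf9* changed sign with quantile normalization (0.083) and without TB IL-2 replicate 2 (0.13), TB IL-2 replicate 3 (0.09) or TB IL-2nil replicate 1 (0.03), and *Tnfsf8* without TB IL-2 replicate 3 (0.14). With 1 library left out at a time, the lowest and highest values were -0.38 and 0.13 for *Tnfsf9*, -0.89 and 0.14 for *Tnfsf8* and, between the stimulated groups, -0.43 and 0.35 for *Tnfsf11*. All values that changed sign had adjusted P values over 0.05.

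Genes of all tested called as labelled were 7 higher and 5 lower in TB IL-2 against TB IL-2nil (583 and 340 in the placement used), 21 and 23 in TB+ IL-2 against TB IL-2 (490 and 386), 109 and 146 in TB+ IL-2nil against TB IL-2nil (968 and 1328), 13 and 2 in TB+ IL-2 against TB+ IL-2nil (400 and 51) and 0 and 0 in the interaction, where 413 had an unadjusted P under 0.05. With both libraries left out the interaction gave 3 and 1. A pseudocount of 0.1 gave 577, 798, 2264 and 119 called lower in the 4 comparisons, and 62 and 179 in the interaction. No scaling gave 638 higher and 2539 lower in TB+ IL-2nil against TB IL-2nil, 624 and 14 in TB+ IL-2 against TB+ IL-2nil and 0 and 1 in the interaction, where it moved the median of all genes by -0.40, 0.27 and 0.35. Quantile normalization gave 231 and 810 called lower in the PMA/I comparisons, so that 69.9% and 58.4% of calls were higher, against 55.9% and 42.2%, and moved the median by 0.11 and 0.24. Without scaling the latter was 20.1%, and the share of positive interactions 0 against 37.1%. The cause was not tested. As no read counts were used, the precision of the values of a few TPM, such as those of *Tnfsf10*, is not known.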

Other observations

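*Tnfrsf14*, whose product binds LIGHT, was at 25.0 TPM in TB IL-2, 67.9 TPM in TB IL-2nil, 20.7 TPM in TB+ IL-2 and 33.8 TPM in TB+ IL-2nil on average. *Tnfrsf8*, the receptor of the *Tnfsf8* product, was at 0.344 to 1.19 TPM on average in the 4 groups, and *Cd40*, the receptor of CD40 ligand, at 0.454 to 2.86 TPM.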
